A study of Mus musculus with 2 samples.

Results

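The 38 genes described here make and handle sterols and fatty acids in the ureter of the newborn mouse, and their RNA was measured in ureters cultured with cyclopamine or with solvent alone. They were chosen by gene symbol and pathway, with earlier results of these data known, and fall into 5 branches: 8 genes of the mevalonate pathway, 11 of sterol synthesis proper, 8 of SREBP control with sterol uptake or transport, 6 of the LXR system and 5 of fatty acid synthesis. All 38 had a probe on the arrays under their own symbol, and all 38 were well above background in all 4 channels, out of 18379 named genes with a tested probe. Where a gene had several probes, the brightest over the 4 channels was used, and 14 of the 38 had more than 1.

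Ureters of newborn (postnatal day 0) wildtype NMRI mice were explanted and cultured on a membrane for 18 h in medium with serum and either 10 µM cyclopamine or solvent. Cyclopamine is a plant-derived steroidal alkaloid that binds SMO, the transducer of Sonic hedgehog (SHH) signaling. Each of the 2 Agilent two-colour arrays set RNA of a cyclopamine pool of ureters against RNA of a control pool of the same sex: replicate 1 carried female pools, with control in green and cyclopamine in red, and replicate 2 carried male pools with the dyes swapped. With 1 array per sex, the sex of the pools, the dye orientation and the replicate number cannot be told apart. The labels give the control solvent as DMF at a dilution of 1:1000, whereas the methods of the study name ethanol for cyclopamine. Whole ureters hold urothelium, smooth muscle and fibroblasts together, so that fewer cells of a type and less RNA per cell cannot be told apart.

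A source label of the treated channel names IWP-2, an inhibitor of WNT secretion, against the title and the treatment entry, which name cyclopamine. Targets of SHH were read as a check. Gli1, a transcription factor and direct target, had log2 ratios of cyclopamine over control of -1.83 on replicate 1 and -2.09 on replicate 2, and the receptor gene Ptch1 had -1.13 and -1.49. Both fell, with adjusted p-values of 1.76e-08 and 0.000248 by limma, a linear model with a variance shared across probes, adjusted by Benjamini-Hochberg over all 25975 tested probes. Axin2, a WNT target, had log2 ratios of 0.36 and 0.63 (adjusted p = 0.462 by limma). The arrays differed in scale, with a 75th percentile of control intensity of 3338 on replicate 1 and 628 on replicate 2, so that ratios were formed within each array.

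Cells make cholesterol from acetyl-CoA through mevalonate, squalene and lanosterol. When sterols in the endoplasmic reticulum are low, SCAP carries the SREBP transcription factors to the Golgi apparatus, where proteases release their active part, which turns on genes of sterol and fatty acid synthesis. INSIG proteins hold SCAP back when sterols are plentiful, and the LXR receptors, activated by oxysterols, turn on genes of sterol export and of fatty acid synthesis. Cholesterol itself is needed for hedgehog proteins and for SMO.

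SREBP binds short sterol response elements, often beside sites of NF-Y, which reads CCAAT. The promoters below come from RefSeq (build GRCm38.p6) and run from 250 bases before to 50 bases after the annotated gene start. Shown first are Idi1, Hmgcs1, Insig1, Hsd17b7 and Mylip, the genes with a listed promoter that were at least 1.2-fold higher on both arrays, and Acly, which had one of the 3 largest mean ratios among genes of one sign that have a listed promoter. The last 3, Pmvk, Acat2 and Nr1h3, had the lowest mean ratios among genes with the same sign on both arrays. Capitals mark the SRE-like motif TCACNCCAC, the CCAAT box and the E box CACGTG on either strand, so that a CCAAT box on the other strand reads ATTGG. The positions are chr13:8885356-8885655 (plus strand) for Idi1, chr13:119690101-119690400 (plus) for Hmgcs1, chr5:28071162-28071461 (plus) for Insig1, chr1:169969156-169969455 (minus) for Hsd17b7, chr13:45389492-45389791 (plus) for Mylip and chr11:100527951-100528250 (minus) for Acly. For the other three they are chr3:89454291-89454590 (plus) for Pmvk, chr17:12960676-12960975 (minus) for Acat2 and chr2:91195067-91195366 (minus) for Nr1h3. Pmvk and Nr1h3 have 2 listed promoters each, of which the first is printed.
Idi1: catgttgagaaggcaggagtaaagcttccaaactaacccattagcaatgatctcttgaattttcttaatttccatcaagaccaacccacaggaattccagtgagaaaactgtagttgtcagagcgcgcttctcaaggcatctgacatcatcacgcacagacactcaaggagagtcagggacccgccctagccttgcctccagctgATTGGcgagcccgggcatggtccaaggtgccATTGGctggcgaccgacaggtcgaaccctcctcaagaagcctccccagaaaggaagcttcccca
Hmgcs1: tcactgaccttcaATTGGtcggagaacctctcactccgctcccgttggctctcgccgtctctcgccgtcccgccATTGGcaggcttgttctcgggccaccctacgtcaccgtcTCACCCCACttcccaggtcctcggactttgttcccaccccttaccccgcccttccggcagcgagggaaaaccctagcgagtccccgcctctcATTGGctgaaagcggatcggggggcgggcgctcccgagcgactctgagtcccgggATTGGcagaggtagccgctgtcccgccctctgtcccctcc
Insig1: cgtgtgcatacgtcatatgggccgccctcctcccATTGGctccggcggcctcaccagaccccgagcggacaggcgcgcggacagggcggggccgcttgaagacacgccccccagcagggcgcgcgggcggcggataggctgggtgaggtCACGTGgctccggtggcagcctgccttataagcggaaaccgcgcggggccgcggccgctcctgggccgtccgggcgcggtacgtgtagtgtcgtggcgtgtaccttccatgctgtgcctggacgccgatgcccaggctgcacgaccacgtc
Hsd17b7: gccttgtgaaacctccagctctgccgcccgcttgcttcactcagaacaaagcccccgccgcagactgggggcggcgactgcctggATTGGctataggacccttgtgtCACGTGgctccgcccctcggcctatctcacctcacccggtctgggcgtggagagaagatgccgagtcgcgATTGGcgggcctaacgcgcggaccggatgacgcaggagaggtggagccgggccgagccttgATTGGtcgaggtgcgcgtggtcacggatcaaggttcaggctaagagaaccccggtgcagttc
Mylip: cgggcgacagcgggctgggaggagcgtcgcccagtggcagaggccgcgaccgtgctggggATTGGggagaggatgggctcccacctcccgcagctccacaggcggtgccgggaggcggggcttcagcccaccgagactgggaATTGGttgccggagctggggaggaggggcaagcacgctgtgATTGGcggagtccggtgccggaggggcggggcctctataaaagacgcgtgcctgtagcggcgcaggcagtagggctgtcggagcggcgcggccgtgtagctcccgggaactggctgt
Acly: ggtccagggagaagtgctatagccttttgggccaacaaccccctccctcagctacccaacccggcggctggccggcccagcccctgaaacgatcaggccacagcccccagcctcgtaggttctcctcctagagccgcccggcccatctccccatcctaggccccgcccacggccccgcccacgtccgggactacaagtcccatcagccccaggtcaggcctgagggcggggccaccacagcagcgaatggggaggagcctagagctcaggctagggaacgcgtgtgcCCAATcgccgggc
Pmvk: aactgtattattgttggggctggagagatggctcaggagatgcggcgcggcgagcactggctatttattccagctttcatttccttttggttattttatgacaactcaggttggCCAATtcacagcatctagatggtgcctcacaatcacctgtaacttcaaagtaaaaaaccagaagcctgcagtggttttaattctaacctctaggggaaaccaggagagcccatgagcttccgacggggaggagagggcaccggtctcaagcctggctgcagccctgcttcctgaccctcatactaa
Acat2: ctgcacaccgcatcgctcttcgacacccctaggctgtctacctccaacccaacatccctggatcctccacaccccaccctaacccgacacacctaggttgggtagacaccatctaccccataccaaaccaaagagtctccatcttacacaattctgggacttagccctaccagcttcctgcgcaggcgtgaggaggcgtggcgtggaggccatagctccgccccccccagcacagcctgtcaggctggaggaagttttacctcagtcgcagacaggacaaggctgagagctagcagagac
Nr1h3: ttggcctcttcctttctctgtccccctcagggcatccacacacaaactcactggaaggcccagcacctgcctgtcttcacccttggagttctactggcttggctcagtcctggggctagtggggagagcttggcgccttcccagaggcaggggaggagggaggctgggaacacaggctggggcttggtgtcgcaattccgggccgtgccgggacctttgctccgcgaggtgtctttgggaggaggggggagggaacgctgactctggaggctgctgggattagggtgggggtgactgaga

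RefSeq promoters were listed for 30 of the 38 genes, 39 promoters in all. The SRE-like motif was found in 1 of the 39 (2.56%), against 1.24% of all 32851 promoters of the same length. That match, in Hmgcs1, begins at base -137 from the start. A CCAAT box on either strand was present in 24 of 39 promoters (61.5%), against 37.4% of all promoters. In the sterol branch 9 of the 11 listed promoters held the box. Fdft1 and Sqle had no listed promoter, and every other sterol gene had a CCAAT box in a listed promoter. An E box was present in 7 of 39 (17.9%, against 7.15%) and a GC box, GGGCGG, in 28 of 39 (71.8%, against 35.7%). These are shares of promoters and not of genes. A gene with several listed promoters can count more than once, as Scap does for the E box, so the promoters are not independent. The median GC content was 62.7% over the members' promoters and 52.7% over all promoters, and its part in these shares was not tested. Each printed promoter of a gene at least 1.2-fold higher on both arrays held a CCAAT box, from 1 in Insig1 to 4 in Hmgcs1, and Pmvk held 1 while Acat2 and Nr1h3 held none. Promoters that are not printed held CCAAT boxes too, among them that of Mvk, a gene lower on both arrays. The printed promoters were chosen by ratio, so their counts cannot compare higher with lower genes. A match of letters is a description and not a measured binding site.

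**Figure D1:**
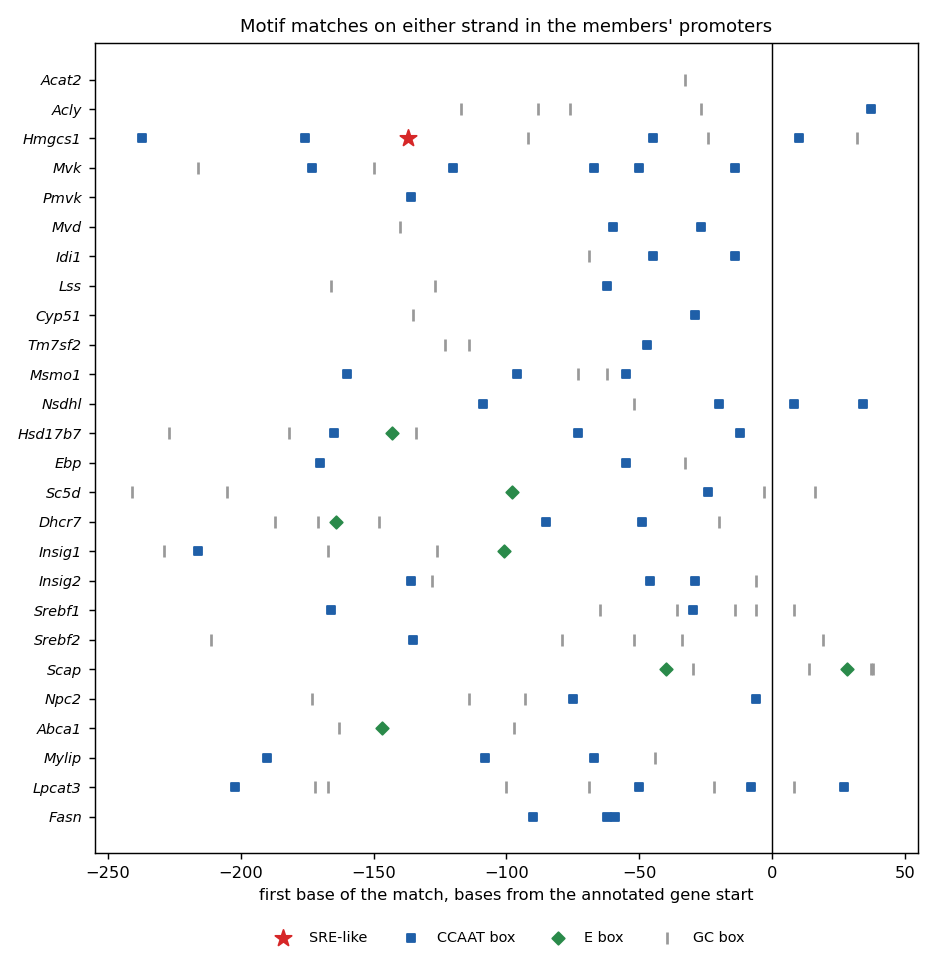
Positions of motif matches on either strand in the listed promoters of the sterol and lipid genes, in bases from the annotated gene start (0). Rows follow the pathway order and show the genes with at least 1 match, with all listed promoters of a gene laid over each other. Stars are SRE-like matches, squares CCAAT boxes, diamonds E boxes and bars GC boxes. The only star is that of Hmgcs1, at -137.

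Most of the 38 genes were higher with cyclopamine, by small amounts. In the same direction on both arrays, 23 were higher (60.5%, against 29.1% of all genes tested) and 4 were lower (10.5%, against 28.8%), and 11 had opposite signs. The median of the mean log2 ratio was 0.23 over the 38 genes and 0.00 over all genes tested. The medians of the 38 were 0.25 on replicate 1 and 0.12 on replicate 2. Their spread differed between the arrays, with log2 ratios from -0.50 to 1.09 on replicate 1 and from -0.28 to 0.52 on replicate 2. The SD of the 4 spots of a probe on 1 array was far smaller, with a median of 0.026 over the members on either array.

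No member was at least 1.5-fold higher on both arrays, against 0.214% of all genes whose control channels both exceeded 100. These limits approximate those of the study, which listed genes with reduced expression by a control intensity over 100 and a fold change beyond 1.5. None was called by limma, against 0.446% of all genes tested that were called higher. At an unadjusted p under 0.05, 6 members were higher by limma (15.8%, against 4.31% of all genes). These were Acly, Hmgcs1, Idi1, Srebf2, Abca1 and Scd2, and none was lower. Abca1 is among them although its ratio on replicate 2 was below 0. At a limit of 1.2-fold on both arrays, 6 members were higher, Hmgcs1, Idi1, Sqle, Hsd17b7, Insig1 and Mylip, which is 15.8% of the 38 against 3.43% of all genes with such controls. With limma, 2 arrays leave 1 residual degree of freedom per probe against 51.9 of the shared prior, so that the standard errors of the members (0.226 to 0.239) hardly reflect how far the arrays differ, and the smallest mean log2 ratio called among all probes was 0.826 in size.

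**Figure D2:**
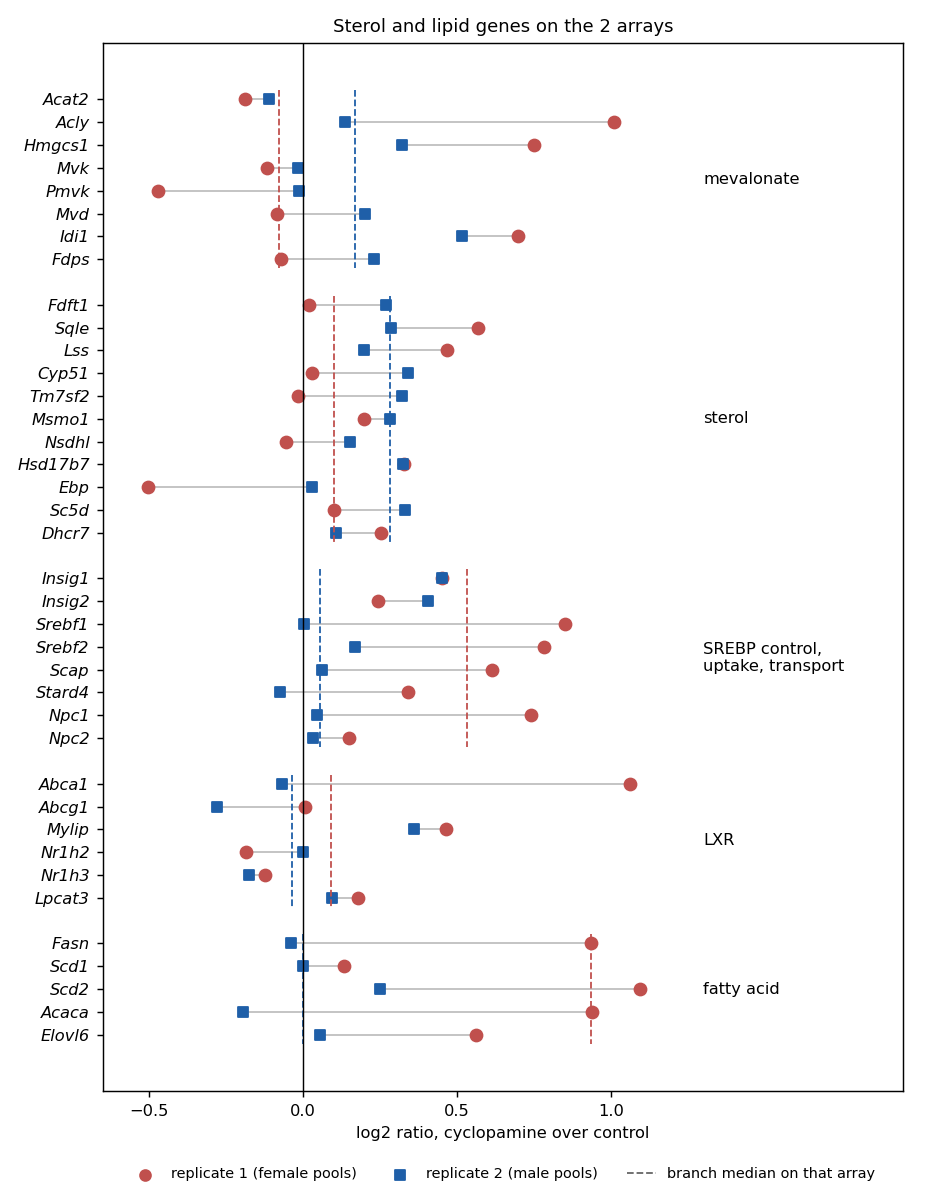
Log2 ratio of cyclopamine over control for each of the 38 genes, in pathway order, on replicate 1 (circles) and replicate 2 (squares), 1 array each. Dashed lines are the branch medians on the array of that colour. For Insig1 and Hsd17b7 both points fall on nearly the same place. All 11 sterol genes lie above 0 on replicate 2, while the fatty acid genes have medians of 0.94 and 0.00.

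In the mevalonate branch 3 of 8 genes were higher on both arrays, 3 were lower on both and 2 had opposite signs, and none was called by limma. Idi1, which isomerises isopentenyl diphosphate, had an intensity of 15684 in control and 25443 with cyclopamine on replicate 1, and of 4319 and 6176 on replicate 2. Both cyclopamine channels were brighter than the control channel of their array. The log2 ratios were 0.70 and 0.52, a mean of 0.61 ± 0.13 (SD, n = 2; adjusted p = 0.259 by limma). Its probe lies at chr13:8891524-8891583 in build mm9.

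Hmgcs1, which makes HMG-CoA for the pathway, went from 20680 to 34816 on replicate 1 and from 7345 to 9186 on replicate 2. The log2 ratios were 0.75 and 0.32 (mean 0.54 ± 0.30, SD, n = 2; adjusted p = 0.385 by limma). A far dimmer second probe, with control intensities of 72.7 and 17.1, gave 0.49 and 0.20. Both probes were thus higher on both arrays, and more so on replicate 1.

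Acly, which supplies cytosolic acetyl-CoA for sterols and fatty acids alike, stood at 21137 and 42560 on replicate 1 and at 8655 and 9519 on replicate 2. Its log2 ratios, 1.01 and 0.14, had a mean of 0.57 ± 0.62 (SD, n = 2; adjusted p = 0.345 by limma). The SD exceeded the mean, and nearly all of the difference came from replicate 1. The second probe of Acly, with 0.86 and 0.25, showed the same order.

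The other 5 mevalonate genes had smaller ratios or ratios below 0. Fdps and Mvd, which act late in the branch, had log2 ratios of -0.07 and -0.08 on replicate 1 and of 0.23 and 0.20 on replicate 2. Acat2, Mvk and Pmvk were lower on both arrays, with means of -0.15, -0.07 and -0.24. The phosphomevalonate kinase gene Pmvk had -0.47 on replicate 1 and -0.01 on replicate 2. A second probe of Pmvk gave -0.55 and 0.095, so that its probes differed in sign on replicate 2. The branch had a median of -0.08 on replicate 1, of 0.17 on replicate 2 and of 0.07 for the mean ratio. With the trend of the ratios with gene length removed, the median on replicate 1 turned to 0.11 and that of the mean ratio was 0.16, and Fdps (0.13) and Mvd (0.09) were then higher on replicate 1 too.

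In the sterol branch, from squalene synthase to cholesterol, all 11 genes were higher on replicate 2 and 8 of 11 on replicate 1. Of all 18379 genes tested, 9132 were higher on replicate 2 and 9298 on replicate 1. On replicate 2 the branch had a median log2 ratio of 0.28, and on replicate 1 one of 0.10. The range was narrow on replicate 2, from 0.03 for Ebp to 0.34 for Cyp51, and wide on replicate 1, from -0.50 for Ebp to 0.57 for Sqle. No gene of this branch was lower on both arrays.

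Sqle, squalene epoxidase, a rate-controlling enzyme of the branch, had intensities of 14570 in control and 21624 with cyclopamine on replicate 1, and of 4682 and 5708 on replicate 2. The log2 ratios were 0.57 and 0.29 (mean 0.43 ± 0.20, SD, n = 2; adjusted p = 0.573 by limma). Hsd17b7, the 3-ketosteroid reductase, went from 2004 to 2518 and from 451 to 566, a log2 ratio of 0.33 on either array (adjusted p = 0.684 by limma). The brightest probe of Hsd17b7 agreed between the arrays. Of its other probes, the brighter gave 0.07 and 0.21 and the dim one -0.21 and 0.15.

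Lss, which closes the sterol ring to lanosterol, had log2 ratios of 0.47 and 0.20, and Msmo1, a C4-methyl oxidase, had 0.20 and 0.28. Dhcr7, which makes the last reduction to cholesterol, had 0.25 and 0.11, and Sc5d, acting just before it, had 0.10 and 0.33. These 4 were higher on both arrays by less than 1.5-fold. Cyp51, the lanosterol demethylase, and Fdft1, squalene synthase, were near 0 on replicate 1 with 0.03 and 0.02, against 0.34 and 0.27 on replicate 2. A dim second probe of Fdft1 gave 0.67 and -0.22, so that its probes disagreed.

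Tm7sf2 (-0.02 and 0.32), Nsdhl (-0.05 and 0.15) and Ebp had opposite signs. Ebp, the sterol isomerase, went from 8539 to 6026 on replicate 1 and from 1168 to 1192 on replicate 2. It was the one sterol gene more than 1.2-fold lower on an array.

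**Figure D3:**
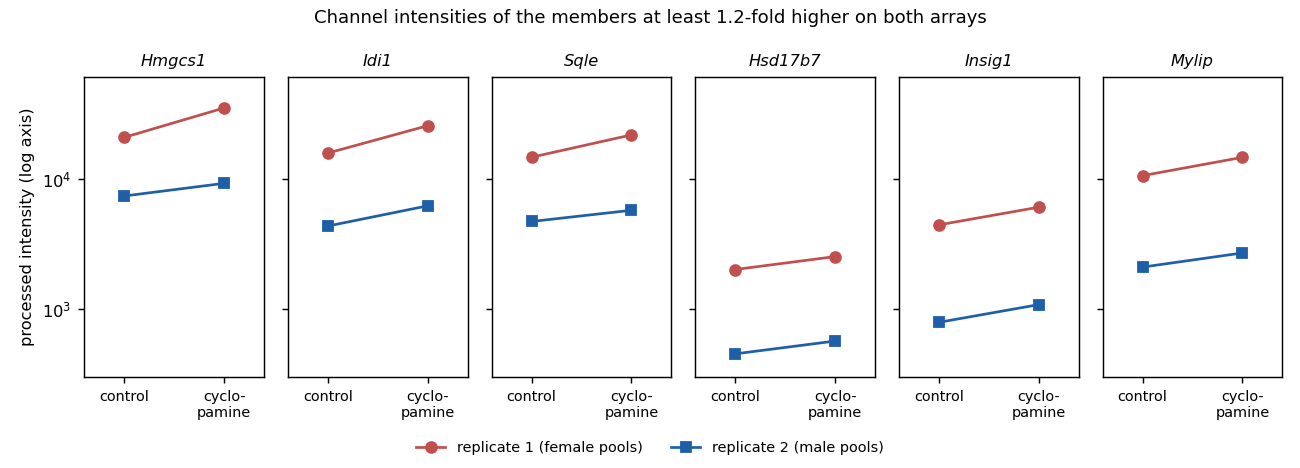
Processed intensity, on a log axis, in the control and the cyclopamine channel of each array for the 6 genes at least 1.2-fold higher on both arrays. Circles are replicate 1 (female pools) and squares replicate 2 (male pools), 1 probe and 1 array each. Every line goes up from control to cyclopamine. Levels of different probes are not to be set against each other.

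Among the SREBP control genes, the negative regulators Insig1 and Insig2 were higher on both arrays. Insig1 went from 4409 to 6028 on replicate 1 and from 788 to 1078 on replicate 2, a log2 ratio of 0.45 on each array (adjusted p = 0.534 by limma). Insig2 had 0.25 and 0.41, and its second probe 0.27 and 0.48. Insig1 is itself a well-known SREBP target, and it differed less between the arrays than any other member.

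The genes of the SREBP transcription factors and of their escort showed another pattern. Srebf1, which encodes the SREBP form tied to fatty acid synthesis, went from 2011 to 3627 on replicate 1 and from 649 to 651 on replicate 2. Srebf2, the form tied to sterol synthesis, went from 4603 to 7923 and from 1377 to 1548. The log2 ratios were 0.85 and 0.00 for Srebf1 and 0.78 and 0.17 for Srebf2 (adjusted p = 0.592 and 0.508 by limma). Both were well over 1.5-fold higher on replicate 1 and not on replicate 2.

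Scap, the escort, had log2 ratios of 0.61 and 0.06. Npc1 and Npc2, which move cholesterol out of lysosomes, had 0.74 and 0.05 and 0.15 and 0.03. Stard4, a cytosolic sterol carrier, had 0.34 and -0.07, and its second probe -0.07 and 0.01. The branch had medians of 0.53 and 0.05 on the 2 arrays, with all 8 genes above 0 on replicate 1 and 7 of 8 on replicate 2. Of all 18379 genes tested, 9298 were above 0 on replicate 1 and 9132 on replicate 2.

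The LXR branch had a median near 0, with 0.09 on replicate 1 and -0.03 on replicate 2. The receptor genes Nr1h2 and Nr1h3 had -0.18 and 0.00, and -0.12 and -0.17. Mylip, whose ubiquitin ligase brings down lipoprotein receptors, went from 10525 to 14545 on replicate 1 and from 2091 to 2685 on replicate 2. Its log2 ratios of 0.47 and 0.36 (mean 0.41 ± 0.07, SD, n = 2; adjusted p = 0.592 by limma) were close to those of a second probe, 0.65 and 0.39.

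The sterol exporters gave no shared direction. Abca1 went from 8112 to 16939 on replicate 1 and from 3015 to 2877 on replicate 2, log2 ratios of 1.06 and -0.07 (adjusted p = 0.504 by limma). Abcg1, another exporter, had 0.01 and -0.28. Lpcat3, which remodels phospholipids, had 0.18 and 0.09.

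The fatty acid branch was high on replicate 1 and, but for Scd2, near 0 or lower on replicate 2. Scd2, a stearoyl-CoA desaturase, had the largest mean ratio of the 38 genes, with intensities of 26989 in control and 57611 with cyclopamine on replicate 1 and of 11603 and 13804 on replicate 2. The log2 ratios were 1.09 and 0.25 (mean 0.67 ± 0.60, SD, n = 2; adjusted p = 0.199 by limma). The other 4 members of the branch lay between -0.19 and 0.06 on replicate 2.

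The fatty acid synthase gene Fasn went from 417 to 798 on replicate 1 and from 148 to 145 on replicate 2, log2 ratios of 0.94 and -0.04. Acaca, which makes malonyl-CoA, went from 9292 to 17804 and from 3227 to 2820, log2 ratios of 0.94 and -0.19. The 3 dimmer probes of Acaca gave 0.43 to 0.90 on replicate 1 and -0.25 to 0.02 on replicate 2. Elovl6, an elongase, had 0.56 and 0.06, and Scd1, the other desaturase, had 0.13 and 0.00. As a branch, these genes had a median of 0.94 on replicate 1 but 0.00 on replicate 2.

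**Figure D4:**
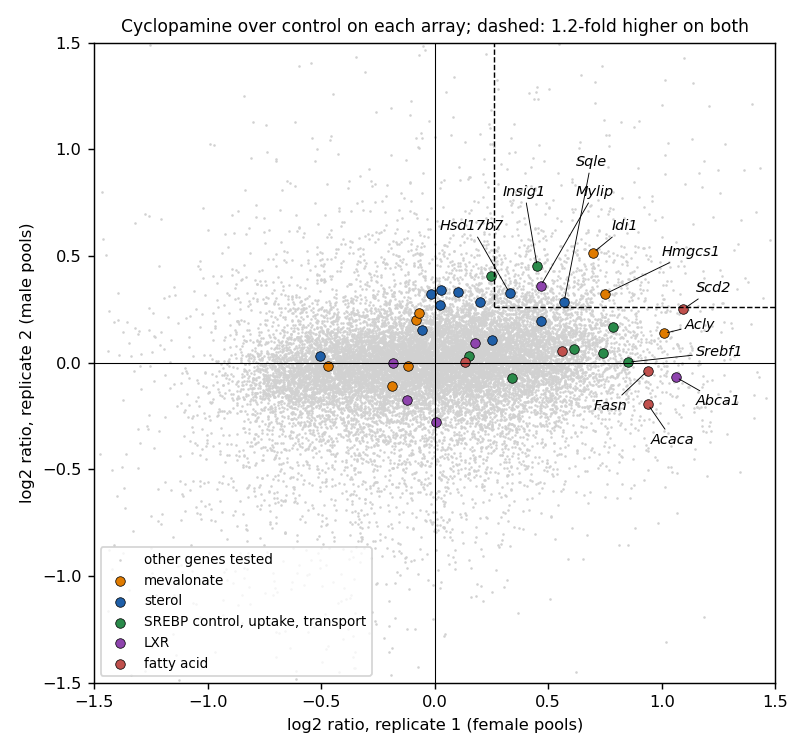
Log2 ratio of cyclopamine over control on replicate 1 (x axis) against replicate 2 (y axis). Small grey points are all genes tested, of which 117 lie at or beyond 1.5 on an axis and are not drawn, and large points are the 38 genes by branch. The dashed corner holds the 6 members at least 1.2-fold higher on both arrays, while Fasn, Acaca and Abca1 lie far to the right and below 0.

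On replicate 1 the ratios moved with gene length across all genes. In 10 equal groups of genes by genomic length, the median log2 ratio went from -0.33 in the shortest group (median length 2.09 kb) to 0.31 in the longest (204 kb), while on replicate 2 the group medians lay between -0.05 and 0.03. Across all genes tested with a known length, Spearman's rho of ratio and length was 0.44 on replicate 1 and 0.03 on replicate 2, with genes that share an array and are not independent. Over the 38 genes it was 0.44 and -0.28. The part of length in the members' values was not tested beyond removing its trend.

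With the length trend removed on each array, the fatty acid genes had a median of 0.66 on replicate 1 and of -0.0031 on replicate 2, and the sterol genes had 0.23 and 0.27. Abca1 then had 0.80 and -0.07, and Acaca 0.66 and -0.15. Idi1, one of the shortest genes of the 38 at 6.79 kb, had 0.92 and 0.53, and Insig1, at 7.25 kb, 0.67 and 0.46. In that fit Idi1 (mean 0.72, adjusted p = 0.0299 by limma) and Scd2 (mean 0.73, adjusted p = 0.0347 by limma) were called higher, the direction they had without it. Scd2 then had 1.21 on replicate 1 and 0.25 on replicate 2. Over all probes, 250 were called higher in that fit, against 118 without the removal.

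**Figure D5:**
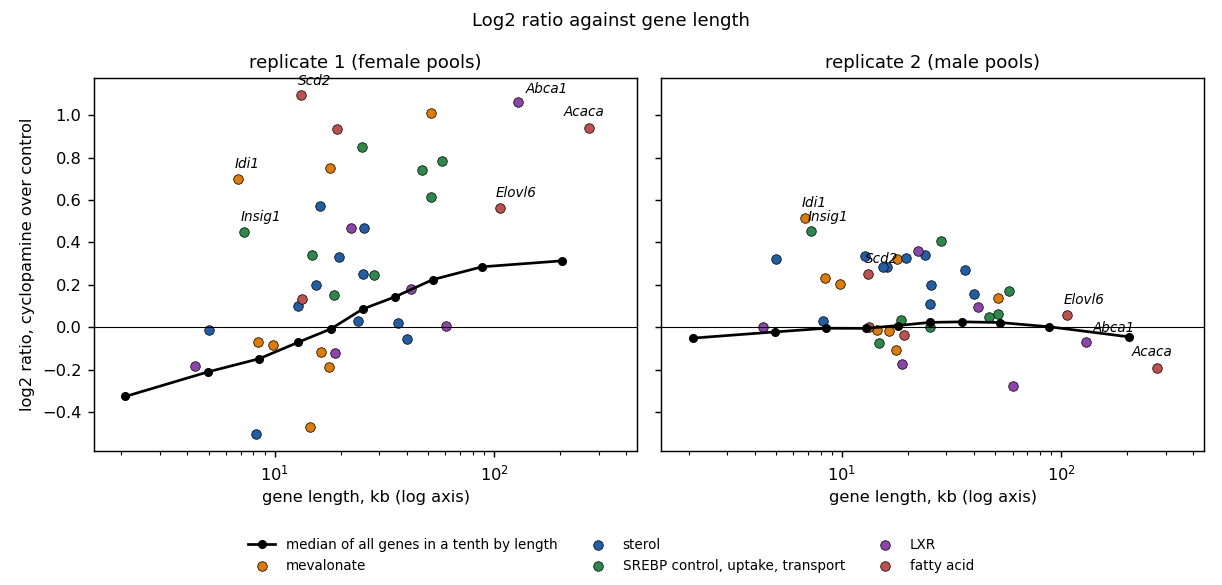
Log2 ratio of cyclopamine over control against the genomic length of the gene (log axis, kb) on replicate 1 (left) and replicate 2 (right). Coloured points are the 38 genes by branch. The black line joins the medians of all genes in 10 equal groups by length, which go from -0.33 to 0.31 on replicate 1 and stay near 0 on replicate 2. Idi1 and Insig1 lie above that line on both arrays.

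Of 45 further genes of these pathways, 44 were tested, and Erg28 had no probe under that name. Higher on both arrays were 23 (52.3%, against 29.1% of all genes) and lower 6 (13.6%, against 28.8%), with a median mean log2 ratio of 0.16. None was called higher by limma. At an unadjusted p under 0.05 by limma, 3 were higher (6.82%, against 4.31% of all genes). At that limit 2 were lower, and over all 18379 genes 890 were lower. The largest mean ratios among those higher on both arrays included those of Mbtps1, the Golgi protease that first cuts SREBP (1.06 and 0.01), and Nceh1, a cholesteryl ester hydrolase (0.80 and 0.26). All 5 genes of SREBP processing were higher on both arrays, with a median of 0.37 on replicate 1 and 0.17 on replicate 2.

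Of the 6 pathway genes lower on both arrays, 1 was called by limma and another passed 1.5-fold on both arrays. Thrsp, a lipogenic gene of adipose tissue and liver, went from 91.0 to 65.7 on replicate 1 and from 9.35 to 2.66 on replicate 2, log2 ratios of -0.47 and -1.81. It was called lower by limma (adjusted p = 0.00477), but on replicate 2 its cyclopamine channel was not well above background, so that the size of the fall was measured on replicate 1 only. Pltp, the phospholipid transfer protein gene and an LXR target, went from 2236 to 1416 and from 831 to 478. Its log2 ratios were -0.66 and -0.80, past 1.5-fold on both arrays (adjusted p = 0.116 by limma).

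Most of the tested markers of fat cells were lower. Of 7 adipocyte markers, 6 were tested and 5 were lower on both arrays (83.3%, against 28.8% of all genes). The list had a median of -0.47 on replicate 1 and -0.52 on replicate 2. Plin4 had opposite signs, with 0.37 and -0.40. On replicate 2 the control intensities of Plin1, Cidec and Retn were low, at 17.9, 7.56 and 11.8. Adipoq, the adiponectin gene, had log2 ratios of -0.86 and -0.65. Cidec, a lipid droplet gene, had -0.46 on replicate 1 and -2.04 on replicate 2, where its cyclopamine channel was not well above background, and was called lower by limma (adjusted p = 0.00215). The summed intensity of the list was 51070 and 9099 in the controls and 43452 and 7565 with cyclopamine, and Lep was not well above background in any channel. Most of that sum was Fabp4, with 44930 and 8274 in the controls and 37785 and 6963 with cyclopamine. The part of fat cells in the values of the lipid genes was not tested.

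Other cell types differed less evenly. Urothelium markers were higher on both arrays for 5 of 8 genes (62.5%, against 29.1% of all genes), with medians of 0.15 and 0.11. Their summed intensity was 335317 and 76986 in the controls against 363798 and 82175 with cyclopamine. Smooth muscle markers were lower on replicate 2 for 6 of 6 genes (median -0.38, against -0.03 on replicate 1). On both arrays 4 of them were lower (66.7%, against 28.8% of all genes). Fibroblast markers had medians of 0.44 and -0.45. Among the fibroblast markers, Thy1 (-0.83 and -0.79) and Aldh1a2 (-0.62 and -0.65) were past 1.5-fold lower on both arrays, while Pdgfra had 1.27 and 0.01, Col1a1 0.73 and -0.48, and Col3a1 0.87 and -0.45. Macrophage markers had medians of -0.24 and -0.15. Of 5 kidney tubule markers, 3 were not well above background. The 8 urothelium, 6 smooth muscle and 7 fibroblast markers, the cell types of the labelled tissue, were all measured, and their part in the members' values was not tested.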

How the data were processed

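RNA of pooled newborn mouse ureters was measured on 2 two-colour arrays. Each deposited scanner file gives the intensity of every spot, as made by the authors with Agilent Feature Extraction, version 12.2.0.7 in the file header and 10.7.3.1 in the submitters' processing notes. Per the file headers, these were background-subtracted, detrended and dye-balanced. The deposited log10 ratio (red over green) was read only as a check of direction. The authors' series table holds a score per probe, from its values a signed fold change rounded to a single decimal.

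Outlier spots (2.89% and 3.15%) were left out, and spots of a probe were averaged as log2 intensity. Of 39429 probes, 25975 were tested, those with at least 0.5 of their spots well above background in the control or the cyclopamine channel of both arrays. limma 3.58.1 in R 4.3.3 (lmFit, eBayes, sign of the dye orientation, no intercept) was run on all of them, two-sided, with a limit of 0.05, and was tested on simulated data. Arrays give no depth, and their number limits the precision. The methods describe the pools as independent. A probe per gene, the brightest over the 4 channels, was used. Positions of probes are in build mm9, and the array annotation gives no exon or UTR. Gene lengths and promoters came from RefSeq (GRCm38.p6). Alternatives were normexp background correction with loess, the series values, all probes of a gene, removal of the length trend, other fold and intensity limits and each array alone.

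The members and lists were chosen with earlier results of these data known, so no branch was given a test of its own. All members are reported. Other pathway genes were named where limma called them or where they passed 1.5-fold on both arrays, and otherwise the 3 with the largest ratio in a direction, of which 1 is not reported here. The rule fixed for printing sequences (the 3 highest and 3 lowest mean ratios of one sign, not on chromosome 18) was applied to promoters, among genes with a listed one, and the other genes past 1.2-fold on both arrays were added after their values were seen.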

Additional observations from a re-analysis of the deposited data

Results flagged for a closer look

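In all, 3 members had opposite signs on the 2 arrays and differed between them by at least 1.5-fold. The log2 ratio of Abca1 was higher on replicate 1 (female pools) than on replicate 2 (male pools) by 1.13, that of Acaca by 1.13 and that of Fasn by 0.975. With 1 array per sex and the dyes swapped between them, the difference was not tested.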

How the results depend on the processing

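No member was called higher by limma, and none at an adjusted p under 0.05 with normexp at an offset of 50 or 10, the series values, all probes of a gene averaged or no filter on dim probes. With the gene length trend removed 2 were called higher (Idi1 and Scd2), and 1 (Scd2, adjusted p = 0.0416 by limma) when the prior followed intensity. In the fit of the 4 channels without the pairing on an array (no replicate block) 0 were called higher, and over all probes 1 was higher and 0 lower, against 118 and 200 in the paired fit. Over all probes the calls were 12 higher and 42 lower with normexp at an offset of 50, 55 and 125 at an offset of 10, 0 and 0 with the series values, and 216 and 261 with no filter. With the length trend removed they were 250 and 303, over the 22593 probes with a known gene length. The cause was not tested.

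The members higher on both arrays numbered 15 with the series values, where rounding puts small changes at 0, and 2 were lower. At a limit of 1.2-fold in place of 1.5-fold, 6 were higher on both arrays. With 1 array left out there is no test. From a single array, 28 to 29 members were higher and 9 to 10 lower, while 9132 to 9298 of all 18379 genes tested were higher. On replicate 1 alone 11 members were at least 1.5-fold higher, and on replicate 2 alone 0. The log2 ratios of all genes spread more on replicate 1, with an SD of 0.45 against 0.30. The share of all genes past 1.5-fold on 1 array was not counted, so the 11 cannot be set against it. The median of all members was 0.12 to 0.25. The mean ratio changed sign with the length trend removed for Nsdhl (-0.024) and Nr1h2 (0.058). With replicate 1 or replicate 2 left out, the values of the genes that changed sign ran from -0.50 to 0.030 for Ebp, -0.073 to 0.34 for Stard4, -0.068 to 1.06 for Abca1, -0.18 to 0.00084 for Nr1h2, -0.037 to 0.94 for Fasn, -0.19 to 0.94 for Acaca, -0.083 to 0.20 for Mvd, -0.070 to 0.23 for Fdps, -0.015 to 0.32 for Tm7sf2, -0.054 to 0.15 for Nsdhl and -0.28 to 0.0071 for Abcg1. All other members kept their sign under each of these alternatives. Of the 6 genes at least 1.2-fold higher on both arrays, 6 remained with either normexp offset, the series values or the length trend removed, and 4 with all probes of a gene averaged, where Hmgcs1 and Hsd17b7 dropped out. With 2 arrays, the mean ratios of all 38 members were under the smallest that limma called among all probes (0.826).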
